A study of Mus musculus with 2 samples.

Results

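Hnf4a and Cebpa are the genes of 2 transcription factors of the hepatocyte, and they were read as 2 of the 500 genes of a MERFISH panel, an imaging method that decodes single RNA molecules in tissue from barcoded probes. They were chosen by name, and their columns were followed through 2 sections of mouse liver. The labels place both sections in 1 group as replicates 1 and 2, with a tag, 2d, that was not interpreted, and give the same preparation for each: snap-frozen liver cut at 10 µm, fixed with PFA and stored in ethanol. The labels name no strain, age, sex, genotype or treatment and leave unsaid whether 1 animal or several gave the sections. The series' design text speaks of treated mice with liver metastases, but the labels link none of it to these sections, so all comparisons are between cells, or places in cells, of the same sections.

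Hnf4a encodes a nuclear receptor that binds DNA as a homodimer, and Cebpa encodes a leucine zipper factor, C/EBP alpha. Both are known in the liver as activators of genes of hepatocyte metabolism and of secreted plasma proteins. Cebpa is also known for its role in the myeloid blood lineage, and Hnf4a is also used in the intestine, kidney and pancreas.

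The stretches upstream of the annotated starts of both genes are shown first because these genes are compared with the plasma protein genes in the results that follow. Regulation between them was not tested. RefSeq's GRCm38.p6 annotation gives Hnf4a 2 starts that lie 40.3 kb apart on chromosome 2, and Cebpa 1 start on chromosome 7. The panel counts transcripts per gene, so the starts of Hnf4a cannot be told apart. Each stretch is the 250 bases before a start on the coding strand of the gene, 5′ to 3′. Capitals mark a match, on either strand, to CAAAGTCCA (a form of the HNF4 motif) or TTGCNNAA (a form of the C/EBP motif).
Hnf4a, upstream start, chr2:163506607-163506856: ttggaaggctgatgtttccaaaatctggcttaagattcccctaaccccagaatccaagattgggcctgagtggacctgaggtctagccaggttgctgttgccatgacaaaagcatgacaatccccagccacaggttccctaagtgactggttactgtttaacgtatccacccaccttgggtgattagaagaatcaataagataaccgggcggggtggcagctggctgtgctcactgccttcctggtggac
Hnf4a, downstream start, chr2:163546905-163547154: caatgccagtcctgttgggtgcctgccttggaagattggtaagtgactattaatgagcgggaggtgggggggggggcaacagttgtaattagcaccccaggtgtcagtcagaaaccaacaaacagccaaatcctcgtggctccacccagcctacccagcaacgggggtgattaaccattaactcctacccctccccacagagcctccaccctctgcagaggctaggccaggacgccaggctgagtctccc
Cebpa, chr7:35119043-35119292: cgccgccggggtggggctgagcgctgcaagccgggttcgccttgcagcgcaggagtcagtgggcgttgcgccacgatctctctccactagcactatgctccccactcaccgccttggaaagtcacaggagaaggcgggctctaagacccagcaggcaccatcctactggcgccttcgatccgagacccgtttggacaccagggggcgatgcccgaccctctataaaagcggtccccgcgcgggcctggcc

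Both Hnf4a stretches and the Cebpa stretch held no match to either motif. Over 32851 promoter entries of the same length the HNF4 form was present in 0.384% and the C/EBP form in 9.56%. Of the 21 plasma protein genes on the panel 16 had an entry. The C/EBP form was present before 5 of these 16 genes and the HNF4 form before 0. Per promoter entry, the unit of the shares above, these were 5 of 18 (27.8%) and 0 of 18. The Ang entry and 1 of the 2 Rnase4 entries are the same stretch, without a match, and both are counted. The Rnase4 match lies in its other entry. The fibrinogen genes Fga and Fgb, which lie near each other on chromosome 3, are shown as plasma protein genes with 1 C/EBP match each, with first bases at -135 and -80.
Fga, chr3:83025903-83026152, plus strand: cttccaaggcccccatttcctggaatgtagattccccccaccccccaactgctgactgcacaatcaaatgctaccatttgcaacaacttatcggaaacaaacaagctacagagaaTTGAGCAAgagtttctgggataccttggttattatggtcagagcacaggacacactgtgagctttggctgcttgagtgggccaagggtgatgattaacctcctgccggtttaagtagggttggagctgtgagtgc
Fgb, chr3:83049864-83050113, minus strand: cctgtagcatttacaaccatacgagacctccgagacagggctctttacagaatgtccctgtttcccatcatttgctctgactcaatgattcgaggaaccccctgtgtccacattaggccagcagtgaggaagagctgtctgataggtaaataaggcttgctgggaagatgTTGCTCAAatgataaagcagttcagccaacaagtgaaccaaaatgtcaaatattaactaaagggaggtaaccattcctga

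A match is a description of letters and says nothing about binding, and no match overlapped another in these stretches.

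Section 1 held 26037 segmented cells and section 2 held 85929, with 428386 and 475382 gene counts and no cell identifier in common. Only cells that reached 10 counts and 50 cubic µm in volume entered the groups, which left 9209 and 16290 cells with medians of 27 and 15 counts. Cells were placed in groups by counts of marker genes, with no clustering: hepatocyte-gated cells held at least 2 counts of 15 enzyme, transporter and junction genes and under 2 counts of every other marker list, and a cell of another group held at least 2 counts of its list and more than of any other list, the hepatocyte list included. Neither Hnf4a, Cebpa nor any secreted plasma protein gene was a marker. The gate took 2391 cells in section 1 and 4550 in section 2. Plasma protein genes took 53.8% and 56.5% of the counts of these cells.

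Hnf4a was among the better detected genes of the panel, with 1730 counts in kept cells of section 1 and 1237 in section 2, which placed it 38th and 33rd of 500. Cebpa had 1287 and 1518 counts and placed 55th and 27th. Both genes exceeded all 50 blank barcodes, which name no gene and whose highest counts in kept cells were 268 and 410. The order of the genes thus differed between sections: kept cells of section 1 held 1.34 Hnf4a counts for each Cebpa count (95% interval 1.25 to 1.44, counting error only), and those of section 2 held 0.815 (0.756 to 0.878). Probes of different genes can differ in efficiency, so these ratios are not ratios of RNA molecules, and whether the relative efficiency was equal in both sections was not tested.

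Both factors were highest in hepatocyte-gated cells among the 5 groups compared, with values given as counts per 10000 gene counts. Groups with under 50 cells in either section were not compared. These included the monocyte or neutrophil group, with 165 and 35 cells and 20 and 3 Cebpa counts, and the B-lineage group, with 76 and 16 cells. Hnf4a stood at 68.1 in hepatocyte-gated cells of section 1 (95% Poisson interval 63.7 to 72.7) and at 46.0 in those of section 2 (42.0 to 50.3). In the other groups it ranged between 14.8 (mesenchymal) and 25.6 (endothelial) in section 1 and between 11.7 (endothelial) and 25.3 (erythroid) in section 2. The Poisson interval of hepatocyte-gated cells lay above that of each of these 4 groups in both sections. The intervals of the 4 other groups overlapped each other for every pair in each section, and their order was not the same in both: the mesenchymal group was lowest in section 1 and the endothelial group, with 3 counts, in section 2.

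Cebpa stood at 42.9 per 10000 in hepatocyte-gated cells of section 1 (39.4 to 46.6) and at 52.8 in those of section 2 (48.5 to 57.4). In section 1 the macrophage or Kupffer group followed at 25.3, the endothelial group at 21.3, the erythroid group at 17.8 and the mesenchymal group at 17.3. In section 2 the macrophage or Kupffer group stood at 44.2 on 14 counts (24.2 to 74.1), the endothelial group at 31.2 on 8 counts, the mesenchymal group at 21.9 and the erythroid group at 17.7. The interval of hepatocyte-gated cells lay above those of all 4 groups in section 1, and above those of the mesenchymal and erythroid groups only in section 2. The intervals of the 4 other groups overlapped each other for every pair here too, so their order is not resolved.

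Blank barcodes give the level reached without a target. The highest blank stood at 5.62 and 8.07 per 10000 in hepatocyte-gated cells, below both factors, but at 14.3 and 69.6 in the erythroid group, where the single highest blank of section 2 exceeded both factors. The mean blank stood at 1.20 and 0.452 in hepatocyte-gated cells and at 1.03 and 2.53 in the erythroid group.

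**Figure D1:**
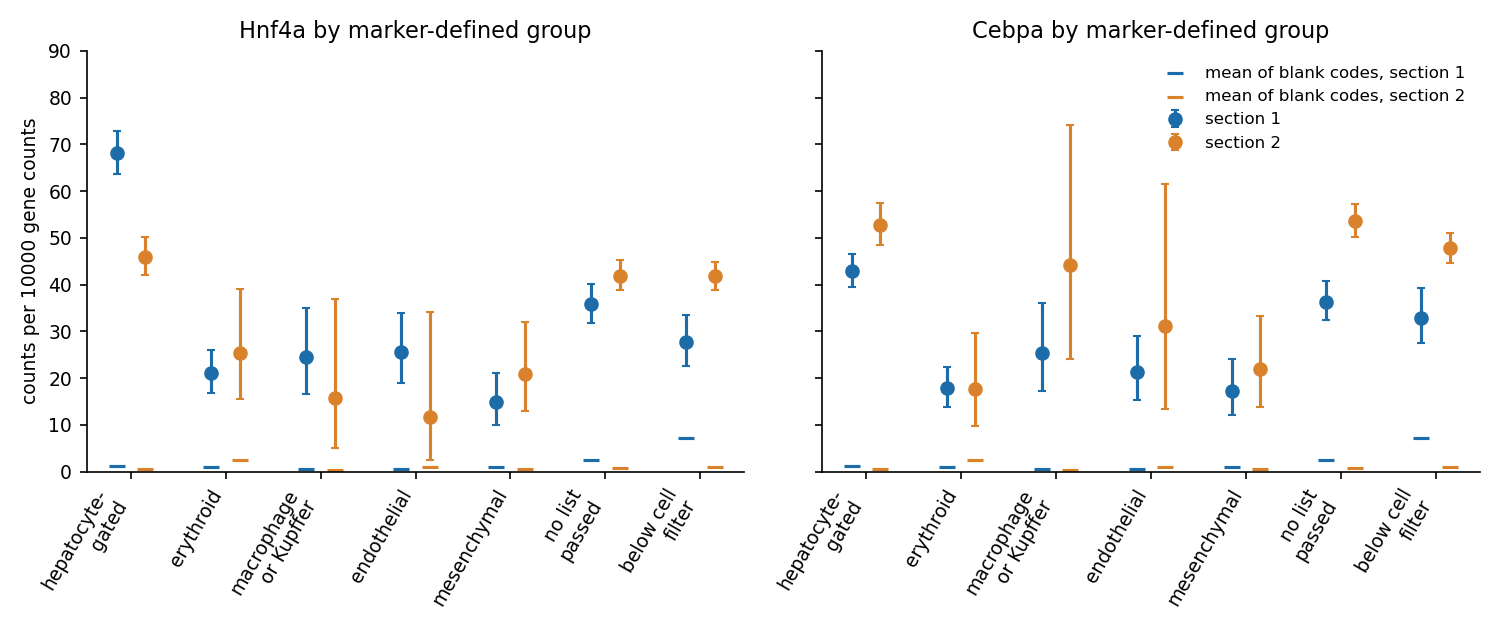
Counts of Hnf4a (left) and Cebpa (right) per 10000 gene counts by marker-defined group, with 95% Poisson intervals, for section 1 (blue) and section 2 (orange), and short bars for the mean of the blank barcodes. Hepatocyte-gated cells sit at 68.1 and 46.0 for Hnf4a and at 42.9 and 52.8 for Cebpa; cells in which no list passed and cells below the filter lie between them and the other groups or, in section 2, level with them.

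The difference between hepatocyte-gated cells and the mean of the 4 other groups was tested with edgeR on counts summed per section and group, with section as a block. Pooled over the 4 groups, Hnf4a stood at 68.1 in hepatocyte-gated cells against 21.1 per 10000 in the others in section 1, and at 46.0 against 20.7 in section 2. The log2 change of Hnf4a was 2.01 (SE 0.28), which passed edgeR's quasi-likelihood test after Benjamini-Hochberg correction (adjusted p = 3.3e-06). Cebpa stood at 42.9 against 19.4 in section 1 and at 52.8 against 24.5 in section 2, with a log2 change of 1.61 (SE 0.25, edgeR adjusted p = 1.7e-05). In this comparison 71 of 311 genes tested were called higher (22.8%) and 35 lower (11.3%), or 34.1% in all, so a call in this direction was not rare. TMM scaling moved the median of all genes by 0.56 relative to library totals. Without TMM the changes were 1.47 and 1.03, both still called, while the split of calls turned to 51 higher and 101 lower. The differences of log2 CPM in single sections, which carry no TMM, were 1.67 and 1.34 for Hnf4a and 1.07 and 0.94 for Cebpa. The labels do not give separate animals. With section as a block, these p-values measure only how far the differences between groups vary between the sections, and counting error. That variation may be technical.

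Of the 7 hepatocyte transcription factors on the panel 5 were called higher in hepatocyte-gated cells and none lower, with a median change of 1.61 against 0.10 for all genes tested. DESeq2 called 3 of them higher. Tbx3, a T-box factor known as a Wnt target in pericentral hepatocytes, had 5.01 against 0.877 per 10000 in section 1 and 3.13 against 1.69 in section 2, a change of 2.52 (SE 0.63, edgeR adjusted p = 0.0033). Its 65 and 33 transcripts in hepatocyte-gated cells carried it past the filter of 50 counts, so its call is a description only. Xbp1, a factor of the unfolded protein response, had a change of 0.43 (SE 0.30) and Cebpb, the acute phase relative of Cebpa, one of -0.40 (SE 0.33), and neither was called. Without TMM Cebpb was called lower. Of the 21 plasma protein genes 19 passed the filter of 50 counts and 16 of these were called higher and 0 lower, with a median of 1.66 (0 lower also by DESeq2 and at an unadjusted p under 0.05). Genes that passed this filter mostly did so through hepatocyte-gated cells, so the calls in both lists describe these lists and test nothing about them.

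**Figure D2:**
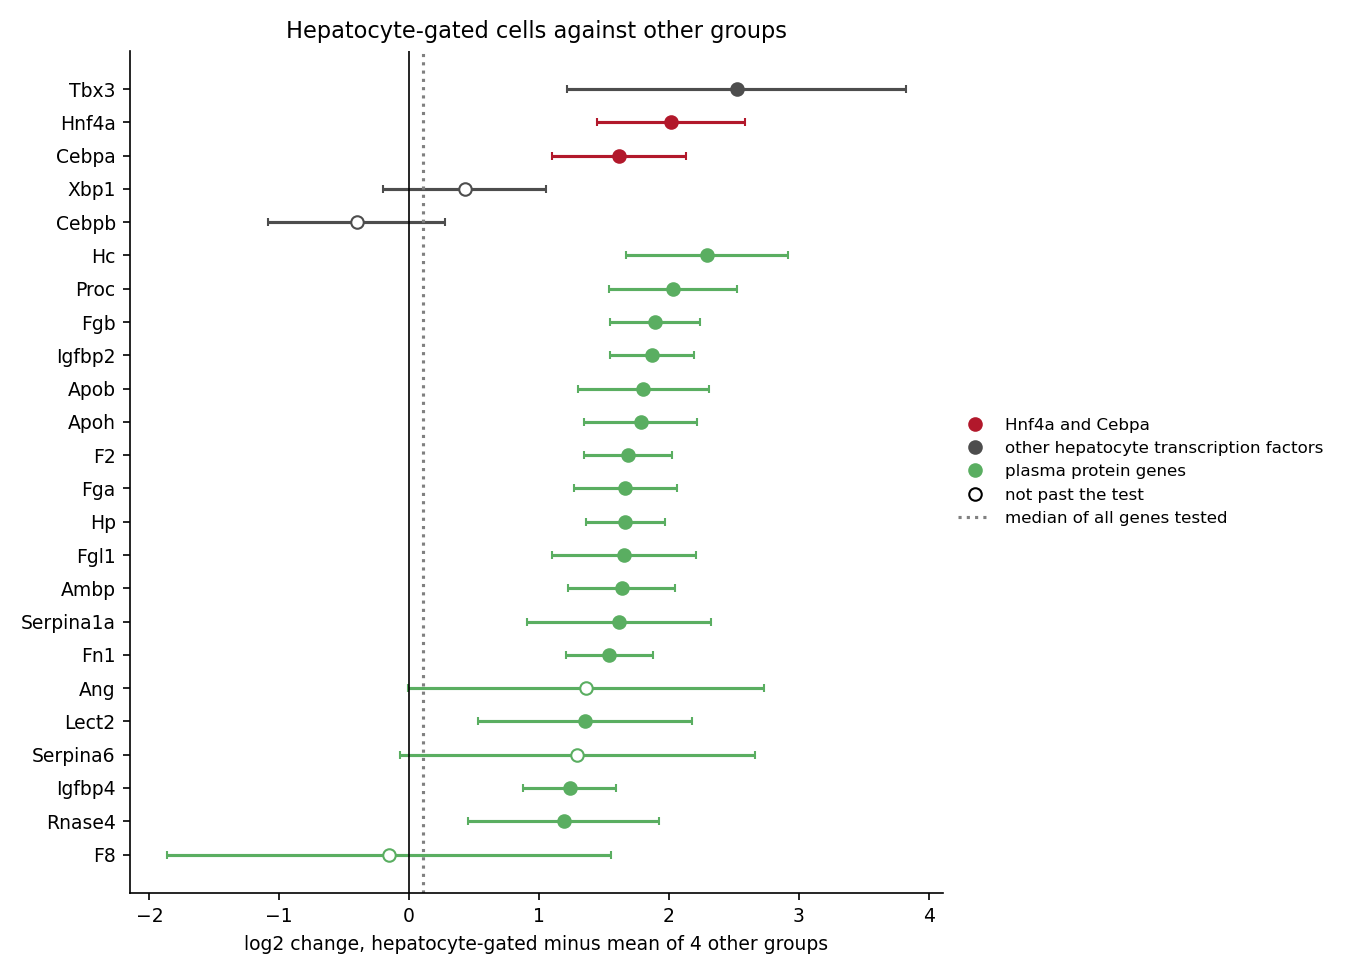
Log2 change in hepatocyte-gated cells relative to the mean of 4 other groups, edgeR estimate with 95% interval, for 5 hepatocyte transcription factors and the 19 plasma protein genes tested. Hnf4a at 2.01 and Cebpa at 1.61 lie within the span of the plasma protein genes, whose median is 1.66; open points did not pass the test and the dotted line is the median of all genes.

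Plasma protein transcripts were also counted in cells of the other groups, so the members were set against them. Plasma protein genes took 53.8% and 56.5% of counts in hepatocyte-gated cells, against 20.5% and 23.7% in the erythroid group, 22.9% and 27.8% in the macrophage or Kupffer group, 31.5% and 38.6% in the endothelial group and 23.4% and 24.3% in the mesenchymal group. Genes of the hepatocyte gate took 8.07% and 11.8% in hepatocyte-gated cells and between 1.64% and 2.50% in the other groups. Per 10000 plasma protein counts, Cebpa stood at 79.7 in hepatocyte-gated cells of section 1 (73.2 to 86.6), against values between 67.6 and 110 in the 4 other groups, and at 93.5 in those of section 2 (85.9 to 102), against 74.6 to 159. Every one of these 8 intervals overlapped that of hepatocyte-gated cells. The macrophage or Kupffer group was the highest in both sections, at 110 on 31 counts (75.1 to 157) and 159 on 14 counts (86.9 to 267). Overlap of intervals is no test of a difference, and differences on this scale were not tested. Hnf4a stood at 127 per 10000 plasma protein counts in hepatocyte-gated cells of section 1 (118 to 135). In that section it stood at 102 in the erythroid group (81.7 to 127) and 107 in the macrophage or Kupffer group (72.1 to 153), with overlapping intervals. The endothelial group, at 81.2 (59.9 to 108), and the mesenchymal group, at 63.1 (42.6 to 90.1), had intervals below that of hepatocyte-gated cells. In section 2 Hnf4a stood at 81.4 in hepatocyte-gated cells (74.3 to 89.0), and the intervals of all 4 groups overlapped with it. How far transcripts of neighbouring hepatocytes make up the counts of these 4 groups was not tested.

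Mixed cells, cells that passed no list and cells below the count filter held the members too. Mixed cells had at least 2 counts of a non-hepatocyte list, but not more of it than of every other list. They numbered 701 and 239, with Hnf4a at 47.4 and 30.0 per 10000 and Cebpa at 32.1 and 46.2. Cells with no list passed made up 43.8% and 62.9% of kept cells. In cells with no list passed Hnf4a stood at 35.7 and 41.9 per 10000 and Cebpa at 36.3 and 53.6, and in cells below the filter Hnf4a stood at 27.7 and 41.7 and Cebpa at 32.9 and 47.7. In section 2 the Poisson intervals of hepatocyte-gated cells overlapped these for both genes. The gate needs 2 counts and so misses shallow cells: the median was 43 and 20 counts per cell in hepatocyte-gated cells, against 17 and 14 in cells with no list passed.

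Over the 5 groups, the 5 genes whose log2 levels ran most like those of Hnf4a were Fn1, Sdc1, Cldn2, Asl and Apob. Ranked by the lower Pearson r of the sections, they had r of 0.80 and 0.77 for Fn1, which encodes fibronectin, 0.98 and 0.76 for Sdc1, a syndecan of the cell surface, and 0.71 and 0.93 for Asl, a urea cycle enzyme. For Cebpa the 5 included Fgl1, Cyp8b1, Apob and Igfbp2, with 0.93 and 0.94 for Fgl1, a secreted fibrinogen-like protein, and 0.87 and 0.90 for Cyp8b1, an enzyme of bile acid synthesis. Hnf4a and Cebpa themselves had r of 0.96 in section 1 and 0.22 in section 2. Each r rests on 5 points that share libraries and depth, over 115 genes compared, and describes these sections only.

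Within hepatocyte-gated cells most cells held no count of either factor. Hnf4a was counted in 631 of 2391 cells in section 1 (26.4%, 95% Wilson interval 24.7 to 28.2) and in 445 of 4550 in section 2 (9.78%, 8.95 to 10.7). Cebpa was counted in 459 (19.2%, 17.7 to 20.8) and 517 (11.4%, 10.5 to 12.3). In the erythroid group, which should lack Hnf4a, 7.85% and 5.25% of cells had a count, at medians of 37 and 18 counts per cell against 43 and 20 in hepatocyte-gated cells. Thinned to 10 counts per cell, the shares for Hnf4a were 5.94% and 4.35% in hepatocyte-gated cells, against 1.88% and 2.58% in the erythroid group, and those for Cebpa 4.28% and 5.11% against 2.06% and 1.59%. At equal depth the shares were thus above those of the erythroid group in both sections for both factors. The highest count in 1 cell was 7 for Hnf4a and 4 for Cebpa. In section 1, 57 cells held 3 or more Hnf4a counts and 17 held 3 or more of Cebpa, and in section 2 there were 2 and 3 such cells.

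Both factors were counted in the same cell in 181 hepatocyte-gated cells of section 1 and 71 of section 2. Within 10 strata of the cells by total count, 158 and 59.2 cells would hold both if the detections were unrelated, and the Mantel-Haenszel odds ratios over these strata were 1.40 and 1.29. Per cell, the shares of counts of the factors had a Pearson r of 0.07 over 2391 cells and 0.03 over 4550, which in counts this sparse is no finding. The level of Hnf4a ran with depth, that of Cebpa less so. In 4 equal sets of hepatocyte-gated cells in order of rising total count, Hnf4a stood at 55.4, 61.2, 62.0 and 75.5 per 10000 in section 1 and at 34.9, 45.6, 45.1 and 49.9 in section 2. Cebpa stood at 47.0, 48.2, 41.3 and 41.3 in section 1 and at 42.3, 59.8, 55.5 and 51.4 in section 2. Cells of the deepest set had a higher share of plasma protein counts than those of the shallowest, at 57.7% against 42.4% in section 1 and 60.02% against 49.4% in section 2, and a larger median volume, at 1569 against 882 cubic µm and 1605 against 1114 cubic µm.

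Because of this, cells with at least 1 Hnf4a count were compared with as many hepatocyte-gated cells with 0 at the same total count, 514 pairs in section 1 and 443 in section 2. Of 631 and 445 Hnf4a-positive cells, those without a partner at the same total were left out, so the comparison does not cover them. Levels in this and the next comparison are per 10000 counts of all genes but Hnf4a and Cebpa. Of all gene counts, Hnf4a-positive cells held 54.2% plasma protein counts against 54.6% in Hnf4a-zero cells in section 1. In section 2 the shares were 56.0% against 58.1%. These totals include the Hnf4a counts that define the classes, 674 of 32352 and 482 of 12903 in positive cells and 0 in zero cells. The split itself thus lowers the share in positive cells, so the direction of the difference cannot be read from these shares. By edgeR 0 of 15 plasma protein genes tested were called higher in Hnf4a-positive cells and 0 lower, where 0 and 3 of all 149 genes were called (0% and 2.01%). At an unadjusted p under 0.05 there was 1 plasma protein gene by edgeR and 0 by DESeq2, which called 0 as well. That gene was Hc, which encodes complement C5 and was chosen after its value was seen: it stood at 49.5 against 33.9 per 10000 counts in section 1 and at 20.3 against 11.3 in section 2, a log2 change of 0.57 (SE 0.25, edgeR adjusted p = 0.61). The 2 plasma protein genes with the most counts were picked after their values were seen. Hp, the acute phase protein haptoglobin, had a log2 change of -0.04 (95% interval -0.09 to 0.01), and Fn1 one of 0.00 (interval -0.03 to 0.03). Such intervals rest on the spread that edgeR fitted and can be narrower than counting error, so they do not bound an effect. The other 13 plasma protein genes had changes between -0.06 and 0.88, with the widest interval, -0.16 to 1.93, for Rnase4, a secreted ribonuclease.

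The 3 genes called were all lower in Hnf4a-positive cells. Ighm, the heavy chain of immunoglobulin M, stood at 9.52 against 36.8 per 10000 in section 1 and at 12.96 against 17.8 in section 2, a log2 change of -1.52 (SE 0.33, edgeR adjusted p = 5.8e-04). Ctsb, a lysosomal protease, stood at 249 against 341 and 178 against 181, a change of -0.39 (SE 0.07, edgeR adjusted p = 7.1e-05), with the larger difference in section 1. Ushbp1 stood at 8.25 against 17.8 and 11.3 against 33.2, a change of -1.31 (SE 0.35, edgeR adjusted p = 0.013). Markers of other cell types moved with these genes, at 0.794% of counts in Hnf4a-positive cells against 1.13% in Hnf4a-zero cells in section 1 and 0.868% against 1.13% in section 2, and their part in the result was not tested. Without the section as a block, without TMM or with DESeq2, 0 genes were called, and with cells not matched on total count 8 were.

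Cebpa stood at 50.8 per 10000 in Hnf4a-positive cells against 42.5 in Hnf4a-zero cells in section 1, and at 64.0 against 59.1 in section 2. The log2 change was 0.18 (95% interval -0.22 to 0.58, SE 0.20, edgeR adjusted p = 0.98) and did not pass. None of the 4 transcription factors tested was called by edgeR or DESeq2, and 0 had an unadjusted p under 0.05 by either.

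The comparison of 410 pairs in section 1 and 514 in section 2, from 459 and 517 Cebpa-positive cells, was made in the same way for Cebpa. Of all gene counts, Cebpa-positive cells held 53.1% plasma protein counts against 55.0% in Cebpa-zero cells in section 1. In section 2 the shares were 55.7% against 59.2%. The Cebpa counts that define the classes are in these totals, 493 of 26560 and 552 of 14787 in positive cells and 0 in zero cells. This lowers the share in positive cells, and how much of the difference it makes was not tested. Of 15 plasma protein genes tested 0 were called higher and 1 lower by edgeR, where 0 and 2 of all 144 genes were called (0% and 1.39%). At an unadjusted p under 0.05 there were 0 higher and 4 lower, and DESeq2 called 0. The direction of these uncorrected counts turned with the scaling, since without TMM there were 2, both higher, and none was called. The gene called was Hp, at 1022 against 1053 per 10000 in section 1 and 1755 against 1837 in section 2, a log2 change of -0.10 (SE 0.01, edgeR adjusted p = 0.024). That SE rests on the spread that edgeR fitted and can lie below counting error. TMM moved the median of all genes by -0.047 here, which is part of the change. The call of Hp was lost under each of the 7 alternatives tried that gave a test. Medians over the 15 genes were -0.07 here, against -0.01 for all genes, and 0.00 with Hnf4a, against -0.03. The other gene called was again Ighm, at 11.6 against 35.2 in section 1 and 12.01 against 17.7 in section 2 (log2 change -1.34, SE 0.24, edgeR adjusted p = 2.1e-05). Cebpa-positive cells of section 1 were larger than their pairs, with a median volume of 1342 against 1197 cubic µm, and in section 2 the volumes were 1442 against 1408. Hnf4a stood at 81.2 in Cebpa-positive cells against 65.0 in Cebpa-zero cells in section 1, and at 59.4 against 50.2 in section 2. Its log2 change of 0.25 (95% interval -0.02 to 0.53, SE 0.14, edgeR adjusted p = 0.37) did not pass, though with cells not matched it was 0.44 and passed (adjusted p = 0.019).

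**Figure D3:**
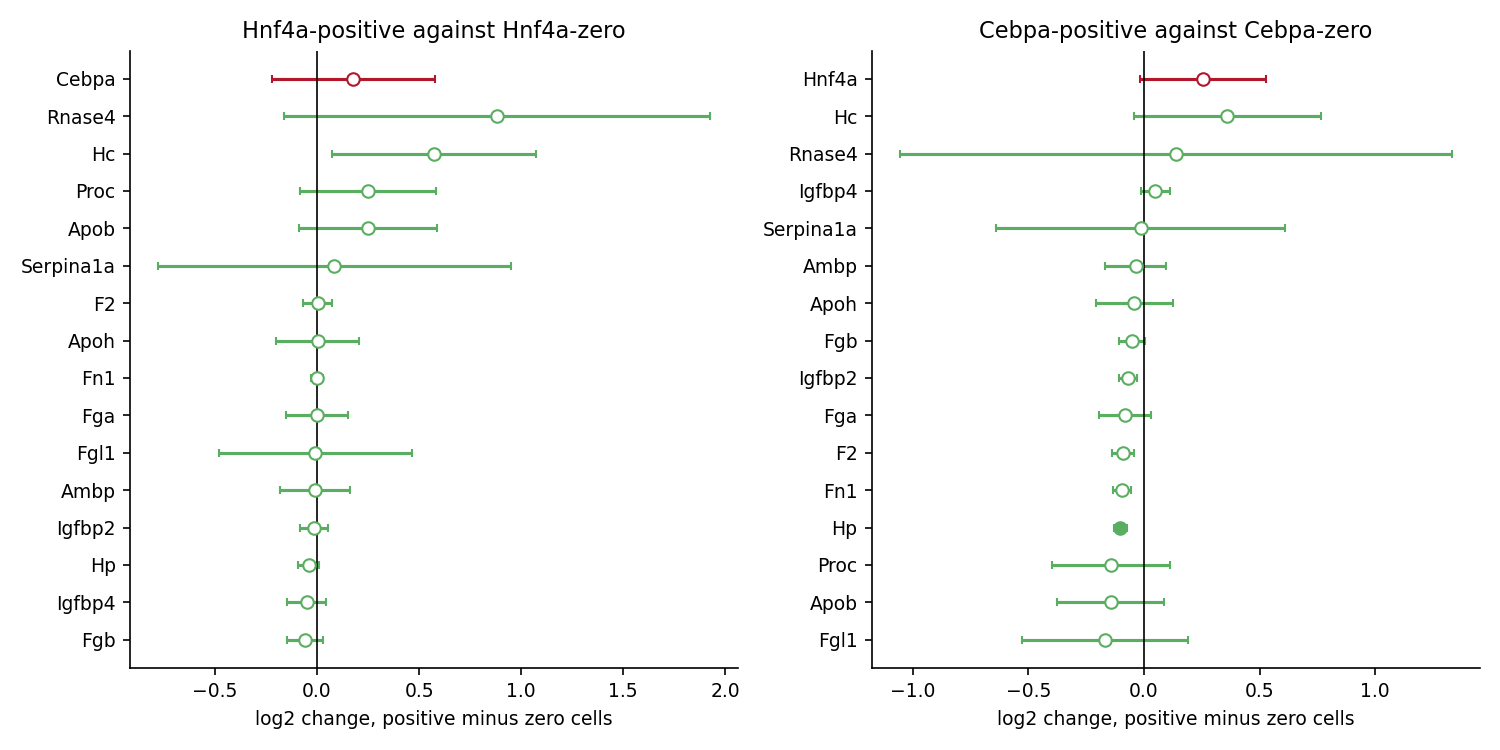
Log2 change in cells with at least 1 count of Hnf4a (left) or Cebpa (right) relative to depth-matched hepatocyte-gated cells with 0 counts, edgeR estimate with 95% interval, for the other factor (red) and the 15 plasma protein genes tested (green). Only Hp, at -0.10 in the Cebpa comparison, is filled as past the test. Most of the abundant genes lie near 0, with intervals that can be narrower than counting error.

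The reverse view split hepatocyte-gated cells of each section into 3 equal bins by the share of plasma protein counts, and the direction of the result depended on what the factors were counted against. Plasma protein genes took 34.8%, 52.6% and 64.9% of counts from the lowest to the highest bin in section 1 and 38.7%, 56.2% and 69.7% in section 2. Set against the counts of all other genes, so that the plasma protein counts did not enter the total, Hnf4a stood at 109, 145 and 188 per 10000 in section 1 and at 87.2, 116 and 119 in section 2. Cebpa stood at 79.1, 101 and 97.1 in section 1 and at 104, 136 and 128 in section 2. On this scale the log2 change in the highest relative to the lowest bin was 0.96 for Hnf4a (SE 0.15, edgeR adjusted p = 1.8e-04) and 0.62 for Cebpa (SE 0.15, edgeR adjusted p = 0.0038), where 41 of 236 genes were called higher (17.4%) and 40 lower (16.9%), or 34.3% in all. TMM moved the median of all genes by 0.33 here. Without it Hnf4a had 0.64 and was called (adjusted p = 0.0085), Cebpa had 0.30 and was not (adjusted p = 0.12), and the calls were 14 higher and 49 lower. Without the section as a block the changes were 0.95 and 0.63 and neither was called (edgeR adjusted p = 0.40 and 0.65).

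Set against all counts, plasma protein counts included, both factors were lower where the share was high. Hnf4a stood at 70.8, 68.8 and 66.1 per 10000 from the lowest to the highest bin in section 1 and at 53.4, 50.9 and 36.0 in section 2, and Cebpa at 51.6, 48.0 and 34.1 and at 63.7, 59.5 and 38.8. On this scale, chosen after the data were seen and without TMM, the log2 change was -0.31 for Hnf4a (SE 0.18, edgeR adjusted p = 0.11) and -0.65 for Cebpa (SE 0.18, edgeR adjusted p = 0.0020). A high share of one set of genes lowers the share left to all others, so neither scale alone gives the direction. In counts per cell, with no total, Hnf4a held 0.258, 0.394 and 0.457 in section 1 and 0.103, 0.121 and 0.0950 in section 2, and Cebpa 0.188, 0.275 and 0.236 and 0.123, 0.142 and 0.102. Only Hnf4a in section 1 was highest in the highest bin on that scale. Depth and other cell types moved with the bins: the median total was 58 counts per cell in the highest bin against 29 in the lowest in section 1 and 23 against 16 in section 2, and markers of other cell types took 0.769% against 2.13% and 0.471% against 1.99% of counts. Their part in the result was not tested.

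Of the 7 hepatocyte transcription factors 3 were called higher in the highest bin against non-plasma counts, Hnf4a and Cebpa among them, and 0 lower, where 17.4% of all genes were called higher. Without TMM 1 factor was called higher and by DESeq2 2 were, with 0 lower by either, and without the section as a block no gene was called. The median change of the 7 factors was 0.71, against 0.02 for all genes tested, and 0.40 against -0.31 without TMM.

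**Figure D4:**
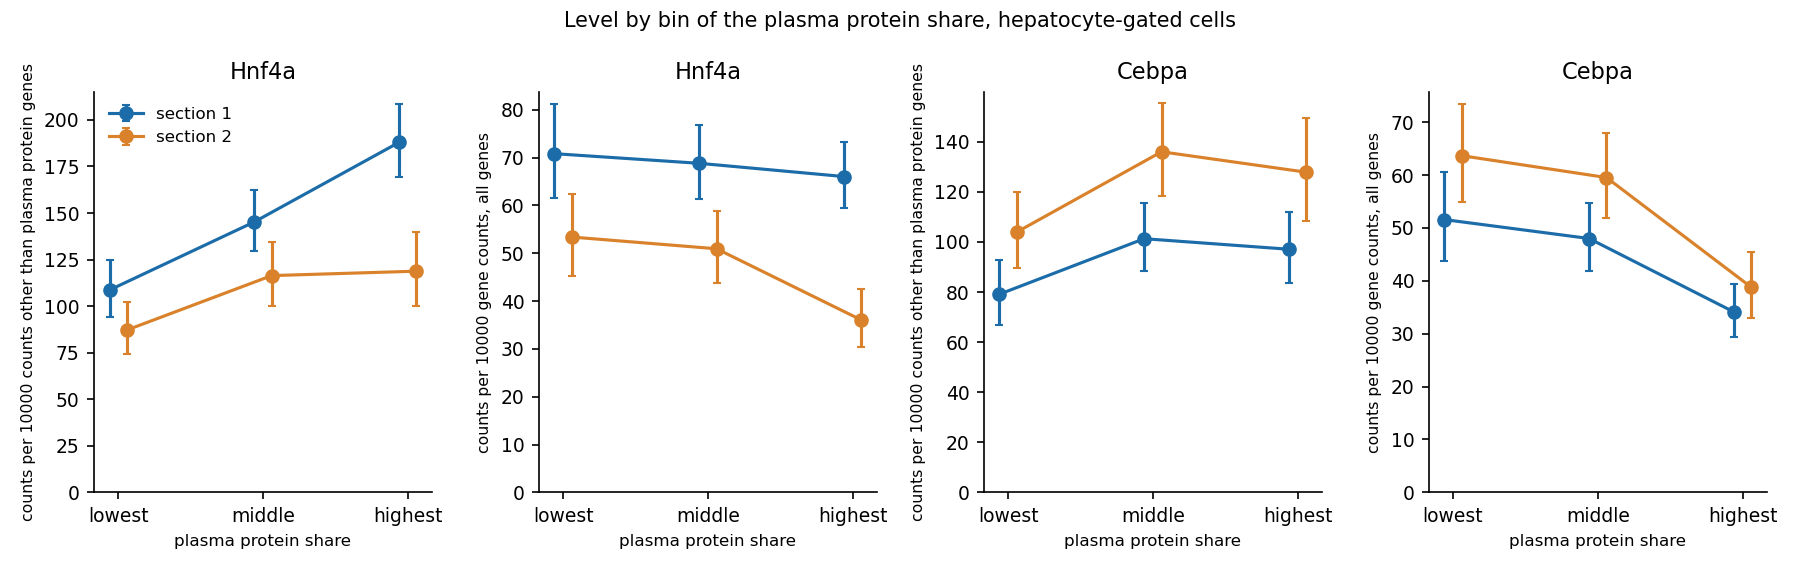
Counts of Hnf4a (2 left panels) and Cebpa (2 right panels) in hepatocyte-gated cells by bin of the plasma protein share, with 95% Poisson intervals, per 10000 counts of other genes (first panel of each pair) and per 10000 counts of all genes (second panel), for section 1 (blue) and section 2 (orange). Hnf4a in the highest bin is at 188 and 119 on the first scale, above 109 and 87.2 in the lowest bin, and at 66.1 and 36.0 on the second, below 70.8 and 53.4.

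Neither factor passed the test along the lobule or beside other cells. Position was scored from the counts of pericentral landmarks (Glul, Cyp2e1, Gulo) and periportal landmarks (Pck1, Ass1, Hsd17b13) in at least 5 hepatocyte-gated cells within 50 µm, which 867 and 2719 cells had, and these cells were split into 3 bins. Hnf4a stood at 46.3 per 10000 on the pericentral side against 66.3 on the periportal side in section 1, and at 44.3 against 47.6 in section 2. Its log2 change was -0.28 (95% interval -0.63 to 0.08, SE 0.18, edgeR adjusted p = 0.65). Cebpa stood at 42.8 against 51.2 in section 1 and at 42.5 against 57.1 in section 2, a change of -0.33 (interval -0.69 to 0.03, SE 0.18, edgeR adjusted p = 0.52). Both values were lower on the pericentral side in both sections, but at this depth, with 62 to 138 counts per bin, the intervals include 0. Of 172 genes 6 were called (3.49%): 4 higher on the pericentral side (2.33%), led by Rnase4, Igfbp2 and the glutathione transferase gene Gsta3, and 2 lower (1.16%), Gprc5c and Fgb. Of 6 transcription factors tested 0 were called by edgeR or DESeq2, and 0 had an unadjusted p under 0.05, with a median of -0.30 against -0.01 for all genes.

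Beside mesenchymal cells, within 50 µm, Hnf4a stood at 55.5 per 10000 in 614 hepatocyte-gated cells against 68.0 in 1400 cells with none near in section 1, and at 43.8 in 1104 against 45.9 in 3143 in section 2. The log2 change was -0.22 (95% interval -0.52 to 0.08, SE 0.15, edgeR adjusted p = 0.81). Cebpa stood at 42.7 against 44.3 and at 50.8 against 53.3, a change of -0.10 (interval -0.40 to 0.21, SE 0.16, edgeR adjusted p = 0.97). In that comparison 3 of 240 genes were called (1.25%), Glul higher (0.417%) and Wnt4 and Igfbp2 lower (0.833%). Beside erythroid cells Hnf4a stood at 64.5 in 1039 cells against 64.6 in 975 in section 1, and at 47.5 in 1022 against 44.5 in 3225 in section 2, a change of -0.04 (interval -0.31 to 0.23, SE 0.14, edgeR adjusted p = 0.94). Cebpa stood at 44.5 against 43.1 and at 48.2 against 54.2, a change of -0.14 (interval -0.42 to 0.14, SE 0.14, edgeR adjusted p = 0.72). There 9 of 239 genes were called (3.77%), 8 higher beside erythroid cells (3.35%), led by Wnt4, Cd24a and E2f2, and 1 lower, Rnase4 (0.418%).

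Inside hepatocyte-gated cells the transcripts of each cell were split at the median distance of all its transcripts from the cell's centre, so that each cell gave as many to the inner as to the outer side. The inner side held 478 Hnf4a transcripts against 401 on the outer side in section 1 (54.4% inner, 95% Wilson interval 51.1 to 57.6) and 257 against 220 in section 2 (53.9%, 49.4 to 58.3). For Cebpa it held 301 against 253 (54.3%, 50.2 to 58.4) and 281 against 265 (51.5%, 47.3 to 55.6). Both factors thus lay above 50% in both sections, with intervals that include 50% in section 2, and so did the median gene with at least 100 transcripts, at 52.4% and 51.5%. Among these 138 and 114 genes, 54 and 40 lay further in than Hnf4a and 55 and 57 further in than Cebpa.

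In the edgeR test the log2 change of the inner side relative to the outer was 0.08 for Hnf4a (95% interval -0.11 to 0.27, SE 0.09, adjusted p = 0.67) and 0.01 for Cebpa (interval -0.20 to 0.22, SE 0.10, adjusted p = 0.98). Neither passed, where 15 of 264 genes were called (5.68%), 5 higher (1.89%) and 10 lower (3.79%) on the inner side. TMM moved the median of all genes by -0.16. Without it the changes were 0.24 for Hnf4a (adjusted p = 0.086) and 0.17 for Cebpa (adjusted p = 0.30), not called, and the calls were 27 higher and 5 lower. Of 16 plasma protein genes tested, 8 were called lower on the inner side and 0 higher, and the median inner share of the 14 with at least 100 transcripts was 48.1% and 48.4%. In each section 12 of these 14 had a lower inner share than Cebpa and 2 a higher one, and the same numbers held against Hnf4a. Hp was 46.7% and 47.8% inner (log2 change -0.32, SE 0.05, edgeR adjusted p = 4.2e-04) and Ambp, the precursor of alpha-1-microglobulin, 45.3% and 45.7%. Of 2 more genes, chosen after their values were seen because they were not lower on the inner side, Hc was 58.0% and 61.3% inner (log2 change 0.37, SE 0.14, edgeR adjusted p = 0.12) and Proc 51.0% and 54.6%, and neither was called. Without TMM 5 of the 16 were called lower and 1 higher. The Wilson intervals of Hnf4a lay above those of Hp in both sections, and those of Cebpa did so in section 1 only. The difference between the factors and the plasma protein genes was not tested as such.

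In 5 zones of equal transcript number per cell, from the centre outward, 23.4%, 20.2%, 19.2%, 20.4% and 16.7% of Hnf4a transcripts fell in each in section 1, and 22.9%, 20.7%, 20.04%, 16.9% and 19.4% in section 2. Plasma protein transcripts had 18.1% in the innermost zone and 21.4% in the outermost in section 1, and 18.4% and 20.7% in section 2. Cebpa had 20.1% in the innermost and 17.6% in the outermost zone in section 1 and 20.5% and 22.8% in section 2, with no common trend. Of the 7 hepatocyte transcription factors 0 were called by edgeR or DESeq2, with 1 by edgeR and 0 by DESeq2 at an unadjusted p under 0.05. The centre is that of the segmented cell outline, so an inner transcript is not shown to be in the nucleus.

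**Figure D5:**
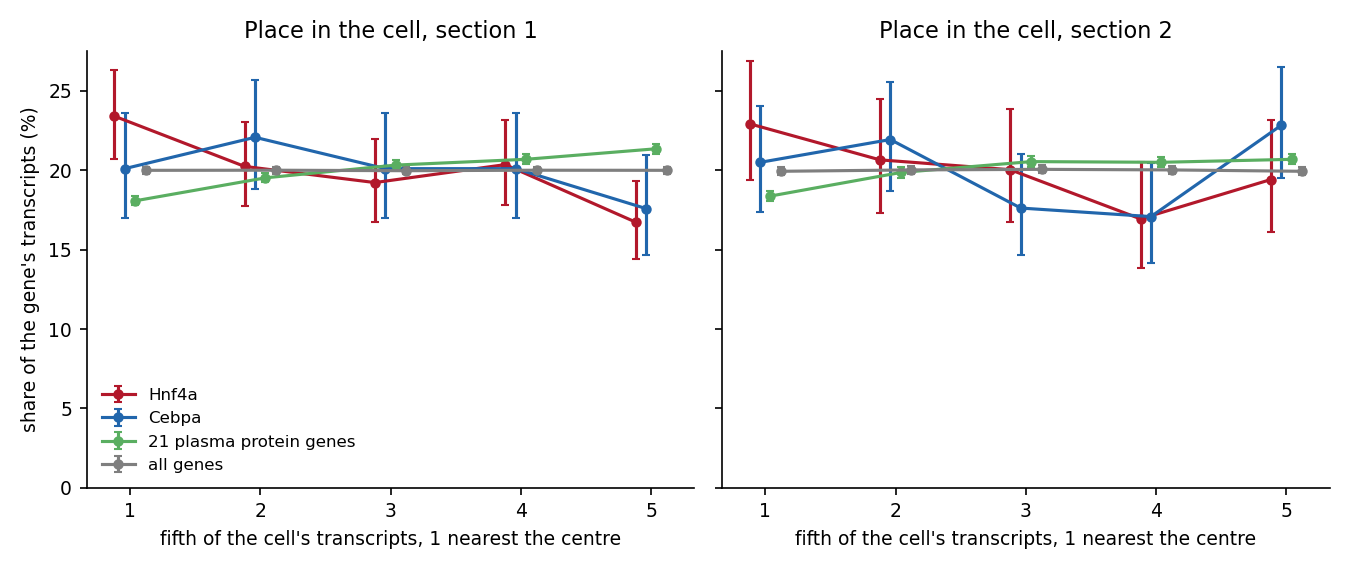
Share of transcripts (%) in each of 5 equal zones of a hepatocyte-gated cell's transcripts, ordered from the cell centre outward, for Hnf4a (red), Cebpa (blue), the 21 plasma protein genes pooled (green) and all genes (grey), with 95% Wilson intervals, in section 1 (left) and section 2 (right). Hnf4a has 23.4% and 22.9% in the innermost zone, where plasma protein transcripts have 18.1% and 18.4%.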

How the data were processed

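MERFISH was run on 2 mouse liver sections. Each deposited cell table gives unnormalized transcript counts of 500 genes and 50 blanks, with the volume and centre of each cell and the position of each decoded transcript, in units the headers do not name and which were taken as µm. The decoding and segmentation software is not given in the sources used here. The authors deposited these counts without normalization.

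The genes, marker lists and comparisons were chosen with earlier results of these data known. Counts were summed per section and class of cells and passed to the quasi-likelihood test of edgeR 4.0.16 in R 4.3.3, with TMM scaling, a block for section, a minimum of 50 counts per gene and Benjamini-Hochberg correction at 0.05. Genes that defined a class were left out of its test. The SE was derived from the log2 change and its F statistic, and intervals are 95%. Both rest on the spread that edgeR fitted and can fall below counting error. Values per section are log2 CPM with a prior count of 2. Poisson and Wilson intervals cover counting error only. Replicate numbers name the sections and pair nothing beyond the block, which is the section itself. Positive and zero cells were matched on total count, both factors left out, with a fixed random seed. Named were Hnf4a and Cebpa throughout, in comparisons of positive and zero cells the plasma protein genes and up to 10 others past the test, elsewhere up to 3 genes per direction past the test and the transcription factors, and the 5 genes most alike over groups.

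The edgeR step was tested on simulated counts with known changes. DESeq2 1.42.0 was an alternative. Promoters come from RefSeq, GRCm38.p6. Image stain signals were not used, and some members of the transcription factor list are not reported by name here.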

Additional observations from a re-analysis of the deposited data

Results flagged for a closer look

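Transcripts decoded outside segmented cells enter none of the comparisons above. In section 1, 1151 of 2987 Hnf4a transcripts (38.5%, 95% Wilson interval 36.8 to 40.3) and 991 of 2404 Cebpa transcripts (41.2%, 39.3 to 43.2) lay outside any cell, against 40.1% for all genes. Both numbers exceeded the highest of the 50 blank barcodes there, which had 598. In section 2 the highest blank had 1217 transcripts outside cells, above the 967 of Hnf4a and the 1158 of Cebpa, while the median blank had 6.5. There 32.9% of Hnf4a and 33.0% of Cebpa transcripts lay outside, against 34.4% for all genes.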

How the results depend on the processing

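The higher level of both factors in hepatocyte-gated cells was called under each of the 7 alternatives with a test, with changes between 1.47 and 2.21 for Hnf4a and between 1.03 and 1.73 for Cebpa. The plasma protein share gave no stable direction. Over all counts without TMM, chosen after the data were seen, Hnf4a had -0.31 and Cebpa -0.65 there, Cebpa had 0.30 without TMM and 0.40 with at least 3 gate counts, both no longer called, and the cause was not tested. Small changes turned sign beside erythroid cells for Hnf4a (0.037 without TMM, 0.024 with at least 3 gate counts) and Cebpa (0.015 with at least 3 gate counts), and between centre and edge for Cebpa (-0.046 with DESeq2, -0.041 within 4 µm of the centre). With cells not matched, Hnf4a in Cebpa-positive cells had 0.44 and was called. Of 102 tests of a factor under alternatives 89 kept direction and side of the threshold. Depth limits the smaller groups, where Hnf4a rests on as few as 3 counts.

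Without the section (replicate block), the share changes were 0.95 for Hnf4a and 0.63 for Cebpa, neither called, and that of Cebpa between centre and edge was -0.0082. The genes called then numbered 37 in place of 106 between groups and 0 in each other comparison. Genes called in Hnf4a-positive cells, 3 as reported, were 0 with DESeq2 or without TMM, 1 without a filter and 8 with cells not matched, of which 1 was a plasma protein gene called higher. In Cebpa-positive cells, 2 as reported, they were 0 with DESeq2 or at least 3 gate counts, and 1 without TMM, without a filter or with cells not matched. The 1 plasma protein gene called lower there became 0 under each of 7 alternatives: no block, DESeq2, no TMM, no filter, at least 20 counts, at least 3 gate counts and cells not matched. By plasma protein share, 81 became 46 with DESeq2 and 174 over all counts. By position, 6 became 3 with DESeq2, 10 without a filter, 2 with at least 3 gate counts, 2 with 5 bins and 15 with a radius of 100 µm. Beside mesenchymal cells, 3 became 0 with DESeq2, without TMM, with at least 20 counts or with a radius of 30 µm. Beside erythroid cells, 9 became 0 with DESeq2 or at least 20 counts and 4 with at least 3 gate counts. Between centre and edge, 15 became 32 without TMM, 5 without a filter, 5 with at least 20 counts, 9 with at least 3 gate counts and 0 within 4 µm of the centre.

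With 1 section left out there is a value and no test. Each value is a difference of log2 CPM in the remaining section and carries no TMM, unlike the reported changes. Over both sections without TMM, edgeR gave 0.64 for Hnf4a and 0.30 for Cebpa by share, and 0.24 and 0.17 between centre and edge. Between groups, the values with 1 section left out were 1.34 to 1.67 for Hnf4a and 0.94 to 1.07 for Cebpa. By plasma protein share they were 0.44 to 0.79 and 0.29 to 0.30. In Hnf4a-positive cells Cebpa ranged from 0.11 to 0.25, and in Cebpa-positive cells Hnf4a from 0.24 to 0.32. By position the ranges were -0.51 to -0.10 for Hnf4a and -0.42 to -0.25 for Cebpa, beside mesenchymal cells -0.29 to -0.068 and -0.071 to -0.053, beside erythroid cells -0.0026 to 0.093 and -0.17 to 0.045, and between centre and edge 0.22 to 0.25 and 0.084 to 0.25.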
